A study of Rattus norvegicus with 6 samples.

Results

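The interneuron marker genes are 9 genes whose products are used to tell the classes of GABA-releasing local circuit neurons of the forebrain apart: Sst, Npy, Vip, Pvalb, Calb1, Calb2, Cck, Lhx6 and Nos1. Their probes were found by matching the RefSeq transcript accession of each array probe to these symbols, which gave 12 probes for the 9 genes, out of 30367 probes and 15443 named genes on the array. Total RNA of rat brain was hybridised to 6 single-channel arrays. The ICH group held 3 arrays of peripheral brain tissue from rats with intracerebral hemorrhage, a bleed into the brain. By the series title the study concerns injury beside the hematoma, which is the clotted blood. The sham group held 3 arrays of brain tissue from sham-operated rats. All 6 samples carry the age label day 1, and strain, sex, brain region and how the hemorrhage was made are not given in the sources used here. Each sample is labelled as a biological replicate, with no animal named, and the design text calls the ICH samples transfected, which no other label mentions. The comparison asks how transcript levels in the tissue beside the clot differ from those after sham surgery.

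Cortical and striatal interneurons fall into classes by origin and by content. Lhx6, a LIM-homeobox transcription factor, is needed for the maturation of cells born in the medial ganglionic eminence, which become somatostatin (Sst) or parvalbumin (Pvalb) cells, while vasoactive intestinal peptide (Vip) cells and most calretinin (Calb2) and cholecystokinin (Cck) interneurons come from the caudal ganglionic eminence. Somatostatin and neuropeptide Y (Npy) are inhibitory peptides that are often made in the same cell, and a subset of those cells also makes nitric oxide through neuronal nitric oxide synthase (Nos1). Several of these genes are also active outside interneurons: Calb1 (calbindin) in striatal projection and Purkinje neurons, Calb2 in thalamic neurons, Cck in cortical pyramidal cells and Npy in the hypothalamus.

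Of the 9 genes, 6 had a promoter window in the RefSeq table of build GRCr8, and those for Sst, Nos1, Npy, Lhx6 and Vip are shown. They were picked after the values were seen, since the first 4 shared their order over the sham arrays and Vip had the opposite one. The window of Pvalb is not shown and held neither form of the motif sought below. Sst and Vip are textbook targets of the cAMP-responsive factor CREB. Each line gives 120 bases before to 30 bases after the annotated gene start, 5′ to 3′ on the gene's strand, and the capitals mark the palindrome TGACGTCA, the cAMP response element, and its shorter form TGACGT, both sought on both strands. The coordinates are chr11:90461426-90461575 (plus strand) for Sst, chr12:44371808-44371957 (minus) for Nos1, chr1:44470360-44470509 (plus) for Vip, chr4:80211991-80212140 (plus) for Npy and chr3:39853394-39853543 (minus) for Lhx6.
Sst: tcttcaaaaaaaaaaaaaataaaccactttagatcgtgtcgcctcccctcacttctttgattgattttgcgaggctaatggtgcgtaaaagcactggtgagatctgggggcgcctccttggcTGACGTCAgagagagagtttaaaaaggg
Nos1: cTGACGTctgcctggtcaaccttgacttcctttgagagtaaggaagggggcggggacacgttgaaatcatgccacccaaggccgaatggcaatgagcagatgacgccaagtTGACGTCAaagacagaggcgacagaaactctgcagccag
Vip: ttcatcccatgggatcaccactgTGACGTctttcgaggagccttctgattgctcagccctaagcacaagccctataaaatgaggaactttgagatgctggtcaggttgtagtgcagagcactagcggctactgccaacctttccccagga
Npy: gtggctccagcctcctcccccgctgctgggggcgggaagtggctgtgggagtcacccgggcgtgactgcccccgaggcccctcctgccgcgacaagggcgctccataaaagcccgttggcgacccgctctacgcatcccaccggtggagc
Lhx6: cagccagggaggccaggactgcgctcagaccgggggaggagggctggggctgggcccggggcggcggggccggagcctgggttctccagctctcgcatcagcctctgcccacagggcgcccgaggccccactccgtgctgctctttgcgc
The 8-letter palindrome was found in Sst and Nos1, that is in 2 of the 6 member windows of 300 bases, and in 1.91% of 27457 promoter windows of that length. The 6-letter form was found in 3 of the 6, Vip being the third, and in 8.22% of all windows. In Sst the palindrome began 3 bases after the annotated start, in Nos1 it began 9 bases before it, with another copy of the short form 119 bases before, and in Vip the short form began 97 bases before. These are matches of letters in a window, and binding was not measured. A link between the matches and the order of the arrays was not tested.

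Each array held 58717 spots other than controls. Values are log2 of the scanner's processed signal minus the 75th percentile of the array, so that 0 is a bright probe and a difference of 1 is 2-fold. They equalled the deposited log2 values to within 0.001 for 98.6% to 99.3% of probes. Between 81.8% and 85.4% of spots were well above background, and 0 were saturated. Correlations across genes were 0.985 to 0.991 within sham and 0.949 to 0.980 within ICH, so the ICH arrays lay farther apart. With 3 arrays in each group the number of arrays limits the precision. All 12 member probes were well above background on all 6 arrays.

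All 9 interneuron marker genes had a lower mean in ICH than in sham, and none passed the test. The differences ran from −0.80 for Calb2 and −0.76 for Sst to −0.05 for Pvalb and −0.03 for Calb1, all below 2-fold, with a median of −0.26 beside −0.05 for all rows tested, where 55.5% of rows were lower. The limma test called 0 of the 9 at an adjusted p under 0.05, and 0 of 22179 rows (0%). At an unadjusted p under 0.05 it called 0 of the 9 and 3265 rows (14.7%). The adjusted p values of the 9 genes ran from 0.345 to 0.941. Tissue was assayed in bulk, so that fewer cells of a type and less RNA per cell cannot be told apart.

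**Figure D1:**
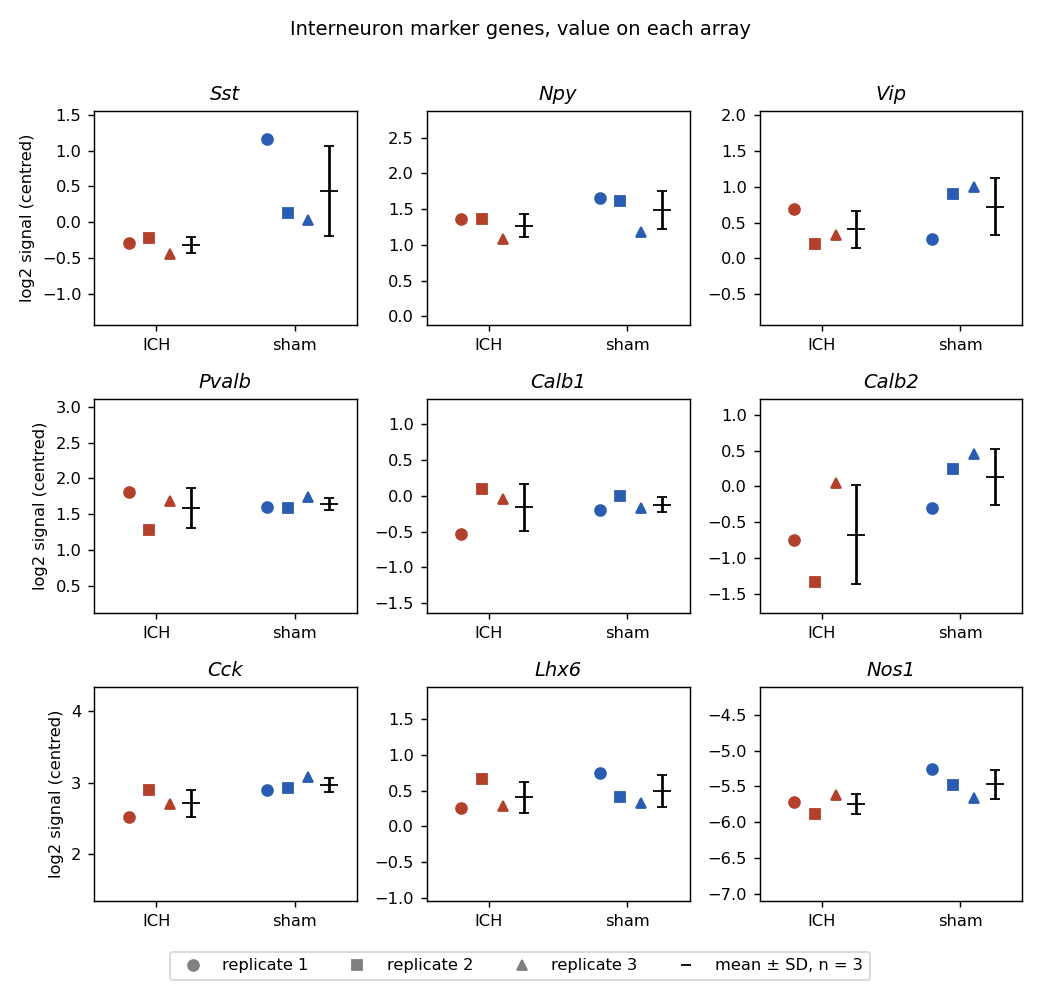
Value of each interneuron marker gene on each array, as log2 signal minus the 75th percentile of the array, with ICH left of sham, a symbol per replicate and the mean ± SD (n = 3) beside the points. Every panel spans the same range of log2 units, and only for Sst do all ICH points lie clearly below all sham points, with sham 1 at 1.16 standing apart.

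The peptide genes come first. Sst encodes the precursor of somatostatin, which marks interneurons that inhibit distal dendrites. It stood at −0.29, −0.23 and −0.45 on ICH 1 to 3, against 1.16, 0.12 and 0.03 on sham 1 to 3. The 3 ICH values lay close together and below every sham value, with a gap of 0.26 between the groups, while sham 1 was more than 1 unit above the other sham arrays. The mean was −0.32 ± 0.12 in ICH and 0.44 ± 0.63 in sham (SD, n = 3 each), a 1.69-fold lower level (−0.76 ± 0.32 SE, 95% interval −1.53 to 0.01, adjusted p = 0.345 by limma). Without sham 1 the difference was −0.40. The exact two-sided permutation test gave p = 0.10, the smallest that 3 against 3 arrays allow. The 2 genes of 9 whose ICH arrays all lay below the sham arrays were Sst and Cck, where 17.3% of all rows did so, and the gap for Cck was under 0.001.

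Npy encodes neuropeptide Y, found in the neurons that make somatostatin and in neurogliaform cells. Its brighter probe stood at 1.35, 1.37 and 1.09 on ICH 1 to 3, against 1.66, 1.61 and 1.18 on sham 1 to 3. The groups overlapped, as sham 3 lay below ICH 1 and ICH 2, and the difference was −0.21 ± 0.18 (SE, adjusted p = 0.573 by limma). It was −0.37 without sham 3, where the groups did not overlap, −0.12 without ICH 3 and −0.13 without sham 1. A second probe, printed on 10 spots of each array, stood at 0.79, 0.52 and 0.59 on ICH 1 to 3, against 1.36, 1.27 and 0.80 on sham 1 to 3. On that probe the groups did not overlap, by a gap of 0.01 between ICH 1 and sham 3, and the difference was −0.51 ± 0.19 (SE, adjusted p = 0.313 in a limma fit of every probe, which called 0 of 24646 probes). The spots of this probe had an SD of 0.03 to 0.07 within an array, far below the spread between the arrays of a group, 0.14 in ICH and 0.30 in sham. Both probes thus put sham 1 and sham 2 above sham 3, and they differ in the size of the difference between the groups.

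Vip, the peptide of interneurons that inhibit other interneurons, stood at 0.70, 0.20 and 0.33 on ICH 1 to 3, against 0.27, 0.90 and 1.00 on sham 1 to 3. Sham 1 lay among the ICH arrays, and the other sham arrays above all of them. The difference was −0.31 ± 0.25 (SE, adjusted p = 0.544 by limma). It was −0.54 without sham 1, where the groups did not overlap, and −0.18 without sham 3. Cck encodes cholecystokinin, made by basket cells and, in larger amount, by cortical pyramidal cells. It stood at 2.53, 2.91 and 2.71 on ICH 1 to 3, against 2.91, 2.93 and 3.09 on sham 1 to 3. ICH 2 and sham 1 were equal to the second decimal, in the deposited values the groups overlapped, and the difference was −0.26 ± 0.15 (SE, adjusted p = 0.437 by limma). Without ICH 1 the difference for Cck was −0.17, and with quantile normalization it was −0.020.

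Pvalb, Calb1 and Calb2 encode calcium-binding proteins of the cytosol. Pvalb, or parvalbumin, marks fast-spiking basket and chandelier cells, and stood at 1.80, 1.27 and 1.69 on ICH 1 to 3, against 1.60, 1.59 and 1.73 on sham 1 to 3. The sham arrays spanned 0.15, and the ICH arrays 0.53, with ICH 1 the highest and ICH 2 the lowest of the 6. The difference was −0.05 ± 0.18 (SE), with a 95% interval of −0.48 to 0.38, so that a 1.39-fold lower and a 1.30-fold higher level both lie within it. Calb1, or calbindin, stood at −0.53, 0.10 and −0.04 on ICH 1 to 3, against −0.20, −0.00 and −0.17 on sham 1 to 3. Here ICH 1 was the lowest and ICH 2 the highest array. The difference for Calb1 was −0.03 ± 0.20 (SE), with a 95% interval of −0.51 to 0.45 (adjusted p = 0.941 by limma).

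Calb2, or calretinin, had the largest difference of the 9 genes and the largest spread. It stood at −0.75, −1.33 and 0.05 on ICH 1 to 3, against −0.31, 0.24 and 0.45 on sham 1 to 3. ICH 1 and ICH 2 lay below every sham array, and ICH 3 lay between sham 1 and sham 2. The mean was −0.68 ± 0.70 in ICH and 0.12 ± 0.39 in sham (SD, n = 3 each), a 1.74-fold lower level (−0.80 ± 0.39 SE, 95% interval −1.75 to 0.14, adjusted p = 0.382 by limma). Without ICH 2 the difference was −0.47, and without ICH 3 it was −1.17.

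Lhx6 and Nos1 encode a transcription factor and an enzyme. The brighter Lhx6 probe stood at 0.26, 0.66 and 0.29 on ICH 1 to 3, against 0.75, 0.41 and 0.33 on sham 1 to 3, a difference of −0.09 ± 0.18 (SE, adjusted p = 0.811 by limma). A dimmer probe of Lhx6 stood at −6.48, −6.07 and −5.84 on ICH 1 to 3, against −5.33, −5.46 and −6.19 on sham 1 to 3, a difference of −0.47 ± 0.29 (SE, adjusted p = 0.450 in the fit of every probe). The groups overlapped on both probes, and sham 1 was the highest array on both. The brighter Nos1 probe, printed on a single spot, stood at −5.72, −5.89 and −5.62 on ICH 1 to 3, against −5.26, −5.49 and −5.67 on sham 1 to 3. ICH 3 lay above sham 3, and the difference was −0.27 ± 0.16 (SE, adjusted p = 0.445 by limma), or −0.16 without sham 1. The other Nos1 probe, on 10 spots, differed by −0.05 ± 0.20 (SE), with an SD between its spots of 0.12 to 0.21. Nos1 was thus dim on both probes, and its probes differed in the size of the difference.

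**Figure D2:**
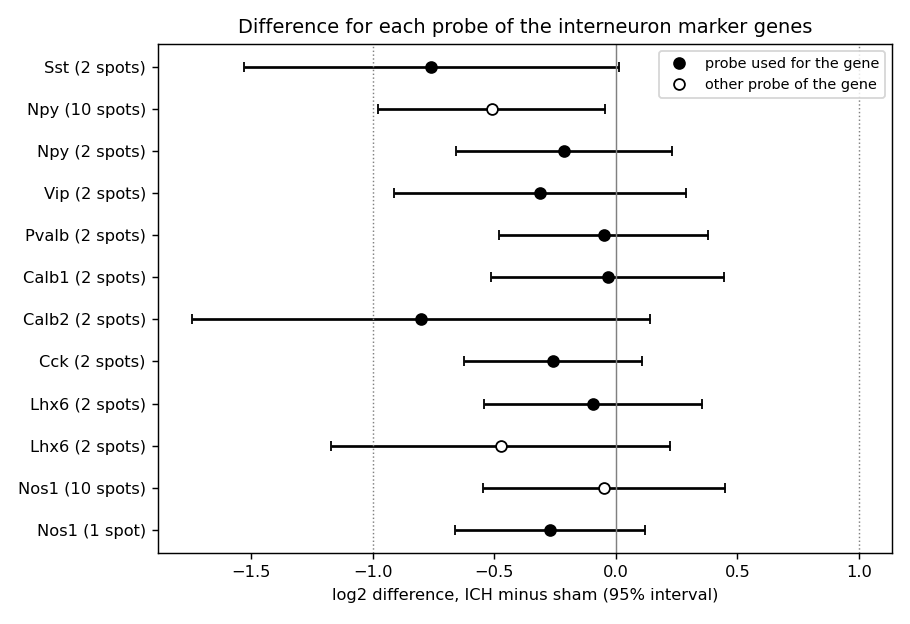
Log2 difference, ICH minus sham, of each of the 12 probes with its 95% interval from limma, filled for the probe used for a gene and open for another probe of the same gene, with the number of spots per array and dotted lines at 2-fold. All points lie left of 0, the interval of the Npy probe on 10 spots alone ends short of 0 (unadjusted), and those of Sst, Calb2 and the dimmer Lhx6 probe reach past a 2-fold lower level.

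The intervals set what these arrays can show. For 7 of the 9 genes, each by its brightest probe, the 95% interval excluded a 2-fold lower level. The others were Sst and Calb2, for which it reached 2.89-fold and 3.36-fold lower. On the dimmer Lhx6 probe it reached 2.25-fold lower. A 2-fold higher level was excluded for all 9. The spread between arrays was larger in ICH than in sham for 4 of the 9 genes, with median SDs of 0.22 in ICH and 0.22 in sham, beside 0.31 and 0.14 over all rows tested. A wider spread in ICH was thus not a feature of these genes as a group, and Sst was much more variable among the sham arrays.

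The order of the arrays divided the genes, a pattern noticed after the values were seen. Sst, Npy, Lhx6 and Nos1 were highest on sham 1 of all 6 arrays and, among the sham arrays, lowest on sham 3. Genes outside the members, such as Gad1, Gad2 and Nr2f2, had the same order. The share of all rows with this order was not computed. Vip, Calb2 and Cck went the other way within sham, highest on sham 3 and lowest on sham 1. Relative to the sham mean, Sst stood at 0.72, −0.32 and −0.41 on sham 1 to 3 and Calb2 at −0.43, 0.11 and 0.32. Pvalb was likewise highest within sham on sham 3, and Calb1 on sham 2. Within ICH the order was different, as ICH 2 was the highest of the group for Sst, Npy, Lhx6, Cck and Calb1 and the lowest for Nos1, Vip, Pvalb and Calb2.

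**Figure D3:**
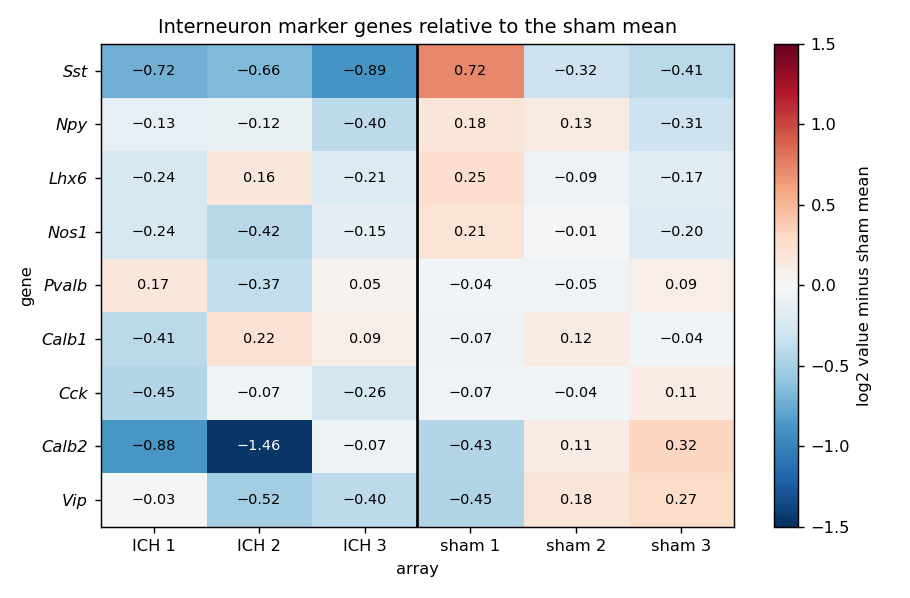
Log2 value of each interneuron marker gene minus its sham mean, printed in each cell and coloured from −1.5 (blue) to 1.5 (red), with the 3 ICH arrays left of the 3 sham arrays. The top 4 genes are red on sham 1 and blue on sham 3, while Vip and Calb2 at the bottom are blue on sham 1 and red on sham 3, and the darkest cell is Calb2 on ICH 2, at −1.46.

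Markers of other neurons were read on the same arrays, with the member genes left out of each list. Of 13 striatal projection neuron markers measured, 13 were lower in ICH and 0 passed, with medians of −0.81, −1.25 and −0.75 on ICH 1 to 3, against 0.27, 0.38 and −0.59 on sham 1 to 3, and a summed level of 19.5 to 24.8 in ICH and 29.1 to 48.5 in sham on the linear scale. Of 13 cortical projection neuron markers 12 were higher and 0 passed, with medians of 0.87, 1.01 and 0.72 on ICH 1 to 3, against 0.33, −0.36 and 0.11 on sham 1 to 3, and summed levels of 16.4 to 20.8 in ICH and 8.77 to 14.0 in sham. No brain region is named in the labels. Of 7 thalamic markers 5 were lower and 0 passed, with medians of 0.16, −1.45 and 0.51 on ICH 1 to 3, against −1.10, 0.49 and 0.48 on sham 1 to 3, so that ICH 2 and sham 1 were low. Calb2 was lowest on ICH 2, and on sham 1 was the lowest of the sham arrays. Vip had the same 2 lows, and so did the oligodendrocyte markers, with medians of −0.83 on ICH 2 and −0.26 on sham 1. On ICH 1, where the thalamic median was 0.16, Calb2 stood at −0.88 relative to the sham mean. A relation of Calb2 to either list was not tested. Thalamic sums ran from 6.05 to 11.7 in ICH and 6.37 to 11.52 in sham. Of 10 hypothalamic markers 9 were lower and 0 passed, with medians of −0.52, −2.00 and −0.47 on ICH 1 to 3, against −0.35, 0.32 and 0.10 on sham 1 to 3, and sums of 8.31 to 18.2 in ICH and 16.4 to 25.4 in sham. Of 7 hippocampal markers 5 were higher and 0 passed, with a median difference of 0.43, and of 4 Purkinje and cerebellar markers 4 were lower and 0 passed, with a median of −0.74. Markers of neurons in general, 7 higher and 7 lower of 14, had a median difference of 0.03. Among the listed markers Tbr1 (cortical) and Otp (hypothalamic) were too dim to test. The part of these marker lists in the differences of the member genes was not tested.

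Cell types other than neurons were looked at in the same way. Of 9 monocyte and neutrophil markers 8 were higher and 0 passed, with medians of 3.08, 3.27 and −0.22 on ICH 1 to 3, against −0.35, 0.16 and 0.21 on sham 1 to 3, and sums of 3.33 to 8.90 in ICH and 3.94 to 5.11 in sham. On ICH 3 the median of these markers was near that of sham. Even so, Mmp9 and Spp1 stood above every sham array there, at 2.62 and 1.25 relative to the sham mean. The other markers of the list lay within or below the sham range on ICH 3. On that array Sst was at its lowest and Calb2 was at its highest of the ICH arrays, and a relation to these markers was not tested. Astrocyte, oligodendrocyte, microglia and endothelial lists had median differences of −0.33, −0.31, −0.40 and −0.37, each more negative than the −0.26 of the interneuron markers. Of 5 erythroid markers 4 were higher and 0 passed, with a median of 0.64. The median of the interneuron markers was thus within the range of lists of other cells.

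The genes that make and package GABA were mostly lower. Of 6 measured, 5 were lower and 0 passed, with a median of −0.43 beside −0.05 for all rows, and for 3 of them all ICH arrays lay below all sham arrays, as they did in 17.3% of all rows. Among the brightest were the vesicular GABA transporter gene Slc32a1 and the GABA-synthesising enzyme gene Gad1. Relative to the sham mean, Slc32a1 stood at −0.46, −0.91 and −0.30 on ICH 1 to 3, against 0.09, −0.04 and −0.04 on sham 1 to 3. Gad1 stood at −0.61, −0.95 and −0.35 on ICH 1 to 3, against 0.17, −0.03 and −0.14 on sham 1 to 3. In both genes every ICH array was below the sham arrays and ICH 2 was the lowest. The differences were −0.56 ± 0.19 for Slc32a1 and −0.64 ± 0.19 for Gad1 (SE), and another probe of Gad1 gave −0.21. Striatal projection neurons also make GABA, so these genes do not mark interneurons alone.

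Receptors of the member peptides showed no common direction. Of 11 measured, each by its brightest probe, 5 were higher, 6 lower and 0 passed, and the receptor genes Sstr5, Npy2r and Npy4r were too dim to test. Sstr2 and Npy5r, counted as lower, were near 0 and were higher on a second probe, so the count depends on the probe used. Sstr4, a somatostatin receptor, stood at 1.18, 1.53 and 0.94 relative to the sham mean on ICH 1 to 3, against 0.25, −0.19 and −0.06 on sham 1 to 3. No ICH array was below a sham array, a separation seen in 10.3% of all rows, and the difference was 1.22 ± 0.21 (SE, adjusted p = 0.215 by limma). The other somatostatin receptor genes differed by 0.42 (Sstr1), −0.01 (Sstr2) and 0.48 (Sstr3), and a second probe of Sstr2 gave 0.79 ± 0.19 (SE). The neuropeptide Y receptor genes Npy1r and Npy5r differed by 0.31 and −0.00, and a second probe of Npy5r gave 0.73 ± 0.12 (SE). Npy1r was the other receptor gene whose groups did not overlap, at 0.32, 0.25 and 0.36 on ICH 1 to 3, against −0.24, 0.14 and 0.10 on sham 1 to 3. The receptors for Vip, encoded by Vipr1 and Vipr2, differed by 0.27 and −0.30, and Adcyap1r1, the receptor of the related peptide PACAP, by −0.08, with −0.24 and −0.13 on its other probes. The cholecystokinin receptor genes Cckar and Cckbr differed by −0.66 and −0.44, where ICH 2 alone was low for Cckar, at −2.03, and a second probe of Cckbr gave −0.67.

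Peptides and calcium-binding proteins related to the members were spread to both sides. Of 10 measured, 4 were higher and 6 lower, with 0 passing and a median of −0.32. All ICH arrays lay below all sham arrays for 4 of the 10 and above them for 3, beside 17.3% and 10.3% of all rows. The brightest were the neuronal calcium sensors Hpca (0.45 ± 0.16) and Vsnl1 (−0.44 ± 0.17) and the calcium-binding protein gene Necab2 (0.42 ± 0.14, all SE). Chosen after their values were seen, Cort, the somatostatin-like peptide cortistatin, stood at −0.56, −0.89 and −0.69 relative to the sham mean on ICH 1 to 3, against 0.19, −0.44 and 0.25 on sham 1 to 3. Its groups did not overlap, and the difference was −0.71 ± 0.23 (SE, adjusted p = 0.299 by limma). Ocm, or oncomodulin, a close relative of parvalbumin, differed by −1.41 ± 0.23 (SE, adjusted p = 0.197 by limma), and its second probe by −1.40. Pvalb and Ocm thus had differences of unlike size on these arrays, −0.05 and −1.41, and the contrast between them was not tested. Like Ocm, secretagogin (Scgn), a calcium sensor of some interneurons, was chosen after its values were seen, and it differed by −0.92 ± 0.30 (SE). Necab1, also chosen after its values were seen, went the other way. It differed by 0.61 ± 0.20 (SE), with every ICH array above the sham arrays. The rest of the list, Gast, Adcyap1 and Pyy, had overlapping groups and differed by −0.20, 0.15 and −0.53, and a second probe of Pyy gave −0.21.

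Of 14 interneuron transcription factor genes measured, 6 were higher, 8 lower and 0 passed, with a median of −0.08. All ICH arrays lay below all sham arrays for 4 of the 14 and above them for 1, beside 17.3% and 10.3% of all rows. The brightest, Zeb2, Nr2f2 and Satb1, differed by −0.27, −0.14 and −0.03. Dlx1 and Dlx5, which act in the development of GABA neurons and were named after their values were seen, had all ICH arrays below all sham arrays, with differences of −0.42 ± 0.15 and −1.25 ± 0.33 (SE). Dlx genes also act in striatal neurons. Nkx2-1 and Lhx8, which act in the ventral forebrain and were likewise named after their values were seen, stood far below the sham mean on ICH 2, at −2.77 and −4.75, beside −0.82 and −1.16 on ICH 1 and −0.68 and −0.64 on ICH 3.

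Of 22 further genes of interneuron subtypes 7 were higher, 15 lower and 0 passed, with a median of −0.18. The brightest were the opioid precursor gene Penk (−1.02 ± 0.30), the tachykinin precursor gene Tac1 (−0.91 ± 0.38) and the neurexophilin gene Nxph1 (−0.24 ± 0.23, all SE). Second probes gave −1.33 ± 0.37 for Tac1 and −0.20 ± 0.32 for Nxph1 (SE). Penk and Tac1 are made in large amount by striatal projection neurons. Named after their values were seen, Reln, Htr3a and Lamp5, markers of interneurons of the outer cortical layers, differed by 0.11, −0.22 and −0.05, and the potassium channel gene Kcnc1 of fast-spiking cells by 0.03. Crh, a stress peptide also made by interneurons and named in the same way, stood at −1.15, −1.52 and −0.60 relative to the sham mean on ICH 1 to 3, against 0.51, −0.59 and 0.07 on sham 1 to 3. Its groups did not overlap, but ICH 3 and sham 2 were nearly equal. All ICH arrays lay below all sham arrays for 5 of the 22 genes, beside 17.3% of all rows.

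Nitric oxide signalling genes, with 6 higher, 6 lower and 0 passing of 12, had a median of 0.03. The brightest, Dynll1, a light chain that binds neuronal nitric oxide synthase, Ddah1, which breaks down an inhibitor of the enzyme, and Gucy1b1, a subunit of the nitric oxide receptor, differed by −0.02, −0.55 and −0.14, while second probes gave −0.09 for Dynll1, 0.06 for Ddah1 and −0.43 for Gucy1b1. The genes for processing and packaging of neuropeptides were mostly lower, 9 of 11 with 0 passing and a median of −0.27. Their brightest members, the carboxypeptidase gene Cpe, the convertase inhibitor gene Pcsk1n and the granin-like chaperone gene Scg5, differed by −0.30, −0.11 and −0.40.

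**Figure D4:**
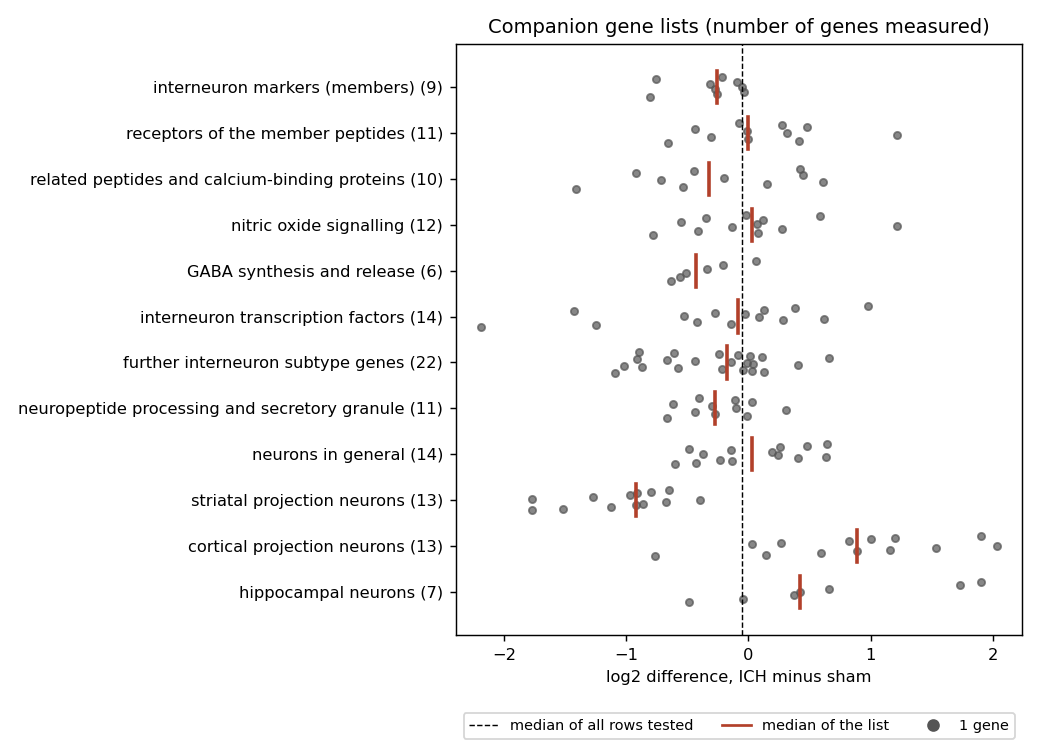
Log2 difference, ICH minus sham, of each measured gene (grey points) in the interneuron marker list and 11 other lists, with each list's median in red and the median of all rows tested, −0.05, as a dashed line. The interneuron markers lie between −0.80 and −0.03, the striatal projection neuron markers all lie left of 0, and 12 of the 13 cortical projection neuron markers lie right of it.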

How the data were processed

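RNA was labelled with Cy3 after linear amplification, per the labels' protocols. Per the file headers, the authors' intensity values come from Feature Extraction 11.5.1.1 by Agilent, which subtracted background and detrended every array. The submitters' processing notes name version 10.7. The spot flags (other values, 0 or 1) are as deposited. The deposited table holds log2 values whose centre, the 75th percentile over all probe means of an array, was worked out from the values.

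Control spots were left out, non-uniform spots (1 to 9 per array) set to missing and spots of a probe averaged after log2. Probes were kept if at least 0.5 of their spots were well above background on at least 3 of 6 arrays, and 4 with a missing value were dropped. Probe accessions were looked up in RefSeq genes of GRCr8, for names only: 18355 probes had 1 symbol, 0 several and 12012 none. The brightest probe stood for a gene, which gave 22179 rows. Differences, ICH minus sham, went through limma 3.58.1 under R 4.3.3 (lmFit, eBayes, 6.13 degrees of freedom, Benjamini-Hochberg over all rows), and the method was tested on simulated data. Exact permutation tests were two-sided.

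The members and lists were chosen with earlier results of these data known. Named were all members, all measured peptide receptors and the 3 brightest genes of the other lists of interneuron genes and pathways; cell type lists are given by counts, and a few genes that this rule names are not reported here, and genes chosen otherwise are marked as such or stand for a contrast noticed in the values. No pairing of samples by replicate number was seen: deviations of same-numbered arrays correlated at −0.19, −0.01 and 0.07. With 3 arrays per group these values cannot exclude a pairing, and the sample labels do not state one. All arrays share 1 slide and 1 scan date, but group and position were not balanced. Row 1 of the slide held sham 1 to 3 and ICH 1, and row 2 held ICH 2 and ICH 3. Normexp used median spot signals.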

Additional observations from a re-analysis of the deposited data

How the results depend on the processing

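Under all 20 alternatives 0 of the 9 genes passed. Sst stayed lower (−0.96 to −0.32, adjusted p from 0.296 to 0.739), and Calb2 stayed lower (−1.17 to −0.36). The Sst groups were apart under 19 of the 20, all but spike-in centring. Many of these alternatives could not change that, so the count does not measure how firm the separation is. Leaving out an array cannot make separate groups overlap, and filters, weights, variance models and blocks leave the Sst values as they are. The number of rows called, 0, was 3 with normexp background correction, 4 with the filter on all 6 arrays, 4 with an intensity trend and robust variance, 3 with array quality weights, 33 with spike-in centring and 0 to 33 with 1 array left out (8 without ICH 2, 33 without ICH 3). The median over the 9 genes, −0.26, was −0.074 with quantile normalization, −0.13 with array quality weights and −0.26 to −0.16 with 1 array left out (−0.16 without sham 1). Spike-in centring moved the median of all rows to 0.39 and that of the 9 genes to 0.18, with Npy at 0.23, Vip at 0.13, Pvalb at 0.39, Calb1 at 0.41, Cck at 0.18, Lhx6 at 0.35 and Nos1 at 0.17, so directions here are relative to the typical gene. Pvalb was 0.11 with quantile normalization, 0.031 with array quality weights. A block for the row on the slide, which sets ICH 1 against the sham arrays of its row, gave 0.17 for Pvalb, −0.03 for Vip, −0.41 for Calb1, −0.45 for Cck, −0.13 for Npy, −0.24 for Lhx6 and −0.72 for Sst. Quantile normalization gave −0.07 for Npy and −0.020 for Cck, and the mean of the probes of a gene gave −0.36 for Npy, −0.28 for Lhx6 and −0.16 for Nos1. With 1 array left out Pvalb ran from −0.16 to 0.11, Calb1 from −0.16 to 0.15 and Lhx6 from −0.22 to 0.032. The causes of these sign changes were not tested. With the replicate number as a block the differences were the same, 0 rows were called and the adjusted p of Sst was 0.456, and 2 of the 6 arrays correlated best with their own number. Centring on the 75th percentile over spots was chosen after seeing the data and gave −0.75 for Sst. Nos1 and the dimmer Lhx6 probe had low signals, though well above background on all 6 arrays.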

Other observations

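The genes whose values followed a member most closely over the 6 arrays, among 12962 other named genes, are given as a description with no test, since the points share arrays and centring and 6 points are few. For Sst they were Ska2 (Pearson r = 0.988) and Negr1 (0.987), with 27 genes over 0.95. For Npy they were Loxl2 and Ptgfr (0.975 each), and for Cck Icam2 (0.982) and Itga6 (0.979). For Pvalb, where 221 genes were over 0.95, they were Tex21 (0.994) and Igsf3 (0.992), for Calb1 Tgoln2 (0.979) and Med21 (0.978), and for Calb2 Fdps (0.994), of cholesterol synthesis, and Igsf9 (0.992). For Lhx6 they were Mllt3 and Hipk3 (0.983 each), and for Nos1 Tpm2 and Tef (0.992 each). For Vip, Ufd1 (0.966) was among the closest. None of the 9 members was among the 2 closest genes of another member.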
